A study of Homo sapiens with 12 samples.

Results

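The mitochondrial carriers of the SLC25 family were examined in MNNG/HOS osteosarcoma cells treated with NXP800 or with the solvent DMSO. Members were taken by symbol, as every gene named SLC25A followed by a number, which gave 48 genes among the 43236 symbols of the count tables. Of these, 41 had enough counts to be tested, within 15979 tested genes. MNNG/HOS is a human osteosarcoma line derived from HOS cells by transformation with the mutagen MNNG. NXP800 is an orally available small molecule first sought as a blocker of HSF1, the factor that drives the heat shock response. The 12 libraries of polyadenylated RNA formed 4 groups of 3: DMSO for 6 h, NXP800 for 6 h, DMSO for 24 h and NXP800 for 24 h. All of them came from this 1 line, so the groups differed by treatment and time and shared every other feature the labels give. The labels number the replicates but do not say whether they came from separate cultures, so the p-values measure the spread between these libraries, which may be technical.

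Mitochondrial carriers are small membrane proteins, most of which sit in the inner mitochondrial membrane and exchange nucleotides, phosphate, keto acids, amino acids, cofactors or metal ions between the cytosol and the matrix. They are encoded in the nucleus, made in the cytosol and inserted into the inner membrane by the TIM22 import pathway. ADP/ATP and phosphate carriers supply oxidative phosphorylation, the citrate carrier exports carbon for lipid synthesis, and the aspartate-glutamate and oxoglutarate carriers are parts of the malate-aspartate shuttle, which moves reducing equivalents into the matrix. A few members depart from this plan, since *SLC25A17* lies in the peroxisome and *SLC25A46* in the outer mitochondrial membrane. The measurements are of RNA and do not give protein or transport rates. In bulk RNA, fewer cells with a transcript and less of it per cell cannot be told apart.

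The libraries held 30810614 to 31947656 counts assigned to genes, and the members made up 0.303% to 0.370% of them. Reads matching no annotated feature were 6.66% to 8.14% in the 6 h libraries and 2.73% to 3.67% in the 24 h libraries. The library set and the time therefore cannot be told apart, and levels are compared within a time point only. The osteoblast regulator *RUNX2* and the bone matrix genes *SPARC* and *COL1A1* were detected in every group, while the osteoblast markers *SP7*, *ALPL* and *COL1A2* were at or near 0. Leukocyte, epithelial and endothelial markers were also at or near 0 apart from *EPCAM*, whose group means were 5.78 to 10.1 CPM (counts relative to library size, scaled by the trimmed mean of M-values). Some of these markers moved with NXP800. *SPARC* fell (log2 changes -0.79 at 6 h and -2.02 at 24 h), as did *COL1A1* (-0.50 and -0.76). *RUNX2* rose (log2 changes 0.71 and 0.36), *EPCAM* rose at 24 h (log2 change 0.81), and the endothelial marker *PECAM1*, at 0.287 to 0.696 CPM, was lower at 6 h (log2 change -1.17). Their adjusted p was 0.0157 or below in each case, and their part in the carriers' changes was not tested. All 5 marker genes of the integrated stress response that were listed, *DDIT3*, *TRIB3*, *ATF4*, *ASNS* and *CHAC1*, were called higher with NXP800 at both times.

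The carrier transcripts were dominated by a few members. Per kilobase of transcript, *SLC25A5*, the ADP/ATP carrier typical of proliferating cells, had the highest level of the family in every group. It stood at 608 ± 9.06 CPM per kb (mean ± SD, n = 3) in DMSO at 6 h and 768 ± 22.1 CPM per kb in DMSO at 24 h. *SLC25A6*, the ubiquitous ADP/ATP carrier, followed at 293 ± 18.9 and 468 ± 27.0 CPM per kb, well apart from *SLC25A5* relative to the spread. Next came the glutathione carrier *SLC25A39*, at 91.8 ± 4.39 and 127 ± 4.40 CPM per kb, and the phosphate carrier *SLC25A3*, at 91.7 ± 4.16 and 108 ± 3.28 CPM per kb. These last 2 were within their spread of each other at 6 h, and their order turns when the coding length is used, because the representative transcript of *SLC25A3* has 5984 bases for a coding length of 1083. The oxoglutarate carrier *SLC25A11* came after them in DMSO at both times, at 70.0 ± 4.44 and 71.4 ± 1.67 CPM per kb. At the low end of the tested members, *SLC25A45* had 0.271 ± 0.0357 CPM per kb in DMSO at 6 h, and the glutamate carrier *SLC25A18* fell to 0.0390 ± 0.00762 CPM per kb with NXP800 at 24 h. The sum over all 48 members was 3230.0 ± 74.5 CPM with DMSO and 2960.0 ± 40.6 CPM with NXP800 at 6 h, and 3846 ± 89.1 CPM against 3090.0 ± 158 CPM at 24 h (SD, n = 3), with no overlap between the treatments at either time. *SLC25A5*, *SLC25A3* and *SLC25A6* made up 54.7% to 60.5% of it by group mean. Summed CPM of all tested genes was 967820 ± 13090 with DMSO and 956370 ± 5359 with NXP800 at 6 h, with overlap. At 24 h that sum was 1071420 ± 16292 against 1007030 ± 36673, also without overlap.

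**Figure D1:**
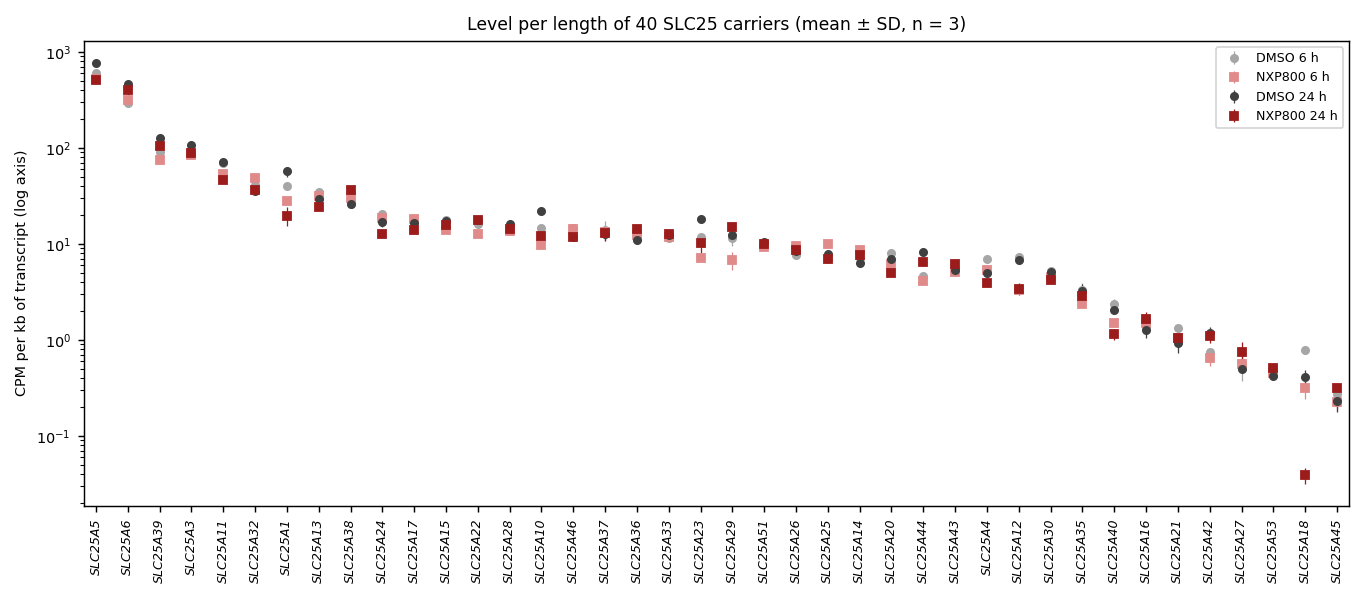
Level of 40 of the 41 tested SLC25 carriers in CPM per kb of representative transcript (vertical log axis, mean ± SD, n = 3 libraries), ordered by the mean over all libraries, for DMSO (circles) and NXP800 (squares) at 6 h and 24 h. *SLC25A5* and *SLC25A6* lie above every other carrier in each group, and *SLC25A18* with NXP800 at 24 h is the lowest point.

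The other 7 members were not tested because too few reads reached them. *SLC25A2*, an ornithine carrier, *SLC25A31*, the testis ADP/ATP carrier, *SLC25A41*, *SLC25A47*, *SLC25A48* and *SLC25A52* had at most 2 counts in every library, and *SLC25A34* had at most 13. A count of 0 in 1 library allows a level of up to 0.0911 to 0.103 CPM, counting error only.

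More carriers were lower than higher with NXP800, at both times. At 6 h, 17 of the 41 tested members were lower and 5 were higher at an adjusted p below 0.05 (edgeR quasi-likelihood test, Benjamini-Hochberg adjustment over all 15979 genes). Over all tested genes 52.8% were called at 6 h, with 25.0% higher and 27.8% lower. The 22 calls among the members, 53.7%, were near that background, and the 17 lower and 5 higher were 41.5% and 12.2% of the members tested. At 24 h, 19 members were lower and 4 were higher, against 28.6% of all genes lower and 27.5% higher, and the 23 calls, 56.1%, again matched the 56.0% of all genes. The median log2 change of the 41 members was -0.18 at 6 h and -0.16 at 24 h, beside -0.046 and -0.0033 over all genes. The split at 24 h depended on the scaling, since 7 members were higher and 15 lower when libraries were scaled by their total only. That scaling moved all genes likewise, to 33.3% higher and 23.4% lower, with a median log2 change of 0.086.

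Most of these changes were small. Only *SLC25A12* and *SLC25A18* at 6 h and *SLC25A1* and *SLC25A18* at 24 h were called with a change over 2-fold, which 11.2% of all genes reached at 6 h and 14.0% at 24 h. The 3 NXP800 libraries lay wholly below the 3 DMSO libraries for 20 members at 6 h and wholly above them for 5, where 32.7% and 29.3% of all genes did so and 62.0% did either. At 24 h the groups did not overlap for 18 members below and 5 above, beside 30.1% and 29.0% of all genes, or 59.1% in all. All 22 members called at 6 h had groups that did not overlap, as did 20 of the 23 called at 24 h, the exceptions being *SLC25A6*, *SLC25A16* and *SLC25A17*. These members were picked by the same differences and the matching share of all called genes was not computed, so this adds no support. A total of 12 members were called lower at both times, which 18.5% of all genes were, and *SLC25A14* and *SLC25A38* were called higher at both, which 16.5% of all genes were. No call was made at either time for 11 members.

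**Figure D2:**
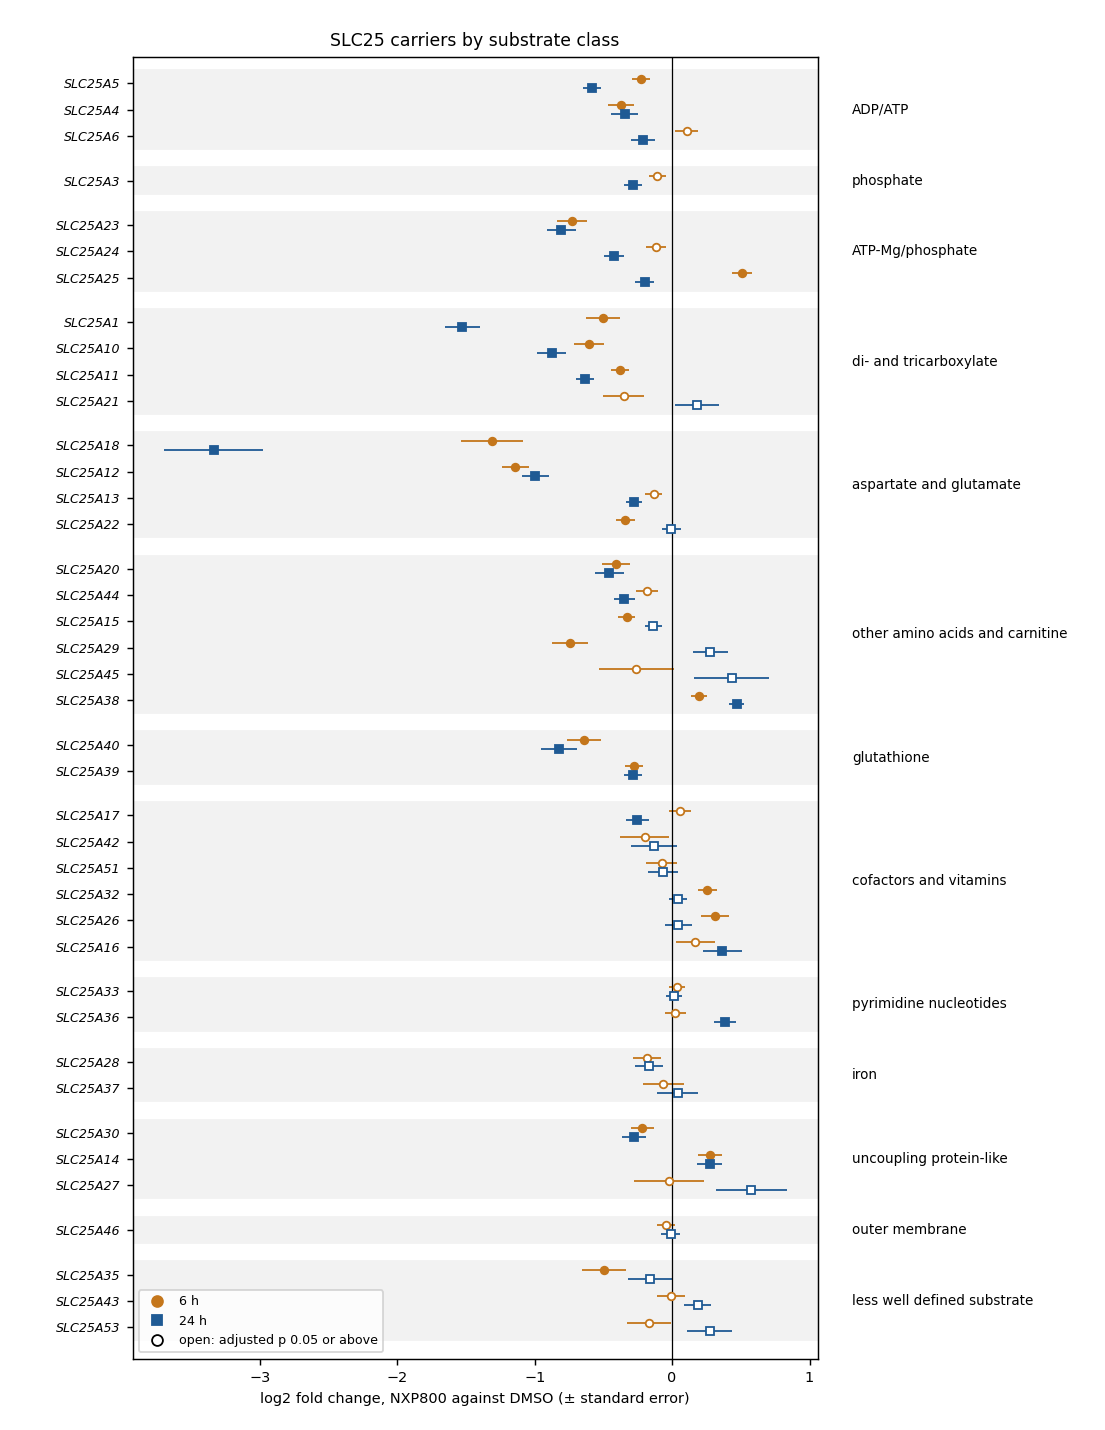
Log2 fold change with NXP800 against DMSO (horizontal axis, ± standard error) of 40 of the 41 tested carriers at 6 h (circles) and 24 h (squares), grouped by substrate class, with filled symbols for an adjusted p below 0.05. The di- and tricarboxylate, aspartate-glutamate, ADP/ATP and glutathione carriers lie mostly left of 0, and *SLC25A38* and *SLC25A14* have filled symbols right of 0 at both times.

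The sequence upstream of 4 members is shown because these carriers mark the range of responses described next: *SLC25A12* and *SLC25A1* with the largest falls among members above 1 CPM at 6 h and 24 h, *SLC25A38* with the largest called rise at 24 h, and *SLC25A11* as the member whose promoter held a match to an amino acid response element. Each is the 250 bases before the start site (RefSeq, GRCh38.p14, 5′ to 3′ on the gene's strand), and capitals mark a motif match.
*SLC25A12*, chr2:171894245-171894494, minus strand: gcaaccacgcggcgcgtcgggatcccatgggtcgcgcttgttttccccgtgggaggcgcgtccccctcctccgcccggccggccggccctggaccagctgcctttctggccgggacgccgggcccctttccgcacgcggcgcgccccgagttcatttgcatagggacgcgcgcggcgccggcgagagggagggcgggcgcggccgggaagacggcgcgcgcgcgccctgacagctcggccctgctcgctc
*SLC25A1*, chr22:19178737-19178986, minus strand: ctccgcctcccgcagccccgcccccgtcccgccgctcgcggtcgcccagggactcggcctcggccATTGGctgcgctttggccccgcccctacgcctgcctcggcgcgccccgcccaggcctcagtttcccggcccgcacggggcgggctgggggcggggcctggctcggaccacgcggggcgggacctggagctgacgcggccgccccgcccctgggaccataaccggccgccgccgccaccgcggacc
*SLC25A38*, chr3:39383120-39383369, plus strand: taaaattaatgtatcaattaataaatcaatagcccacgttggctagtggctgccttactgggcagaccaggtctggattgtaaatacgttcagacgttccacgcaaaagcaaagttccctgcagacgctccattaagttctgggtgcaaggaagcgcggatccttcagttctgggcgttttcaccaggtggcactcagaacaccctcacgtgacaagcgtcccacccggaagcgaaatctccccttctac
*SLC25A11*, chr17:4940047-4940296, minus strand: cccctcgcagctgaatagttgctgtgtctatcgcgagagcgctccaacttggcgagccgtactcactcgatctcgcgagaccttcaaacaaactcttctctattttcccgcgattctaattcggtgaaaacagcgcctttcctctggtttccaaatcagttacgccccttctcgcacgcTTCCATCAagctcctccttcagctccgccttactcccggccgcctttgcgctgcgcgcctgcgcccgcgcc
GC made up 77.2% of the *SLC25A12* and 81.6% of the *SLC25A1* stretch, with 42 and 37 CpG dinucleotides, against 49.6% and 12 CpG for *SLC25A38* and 57.6% and 25 CpG for *SLC25A11*. Promoters of 300 bases, from 250 before to 50 after the start, were found in the RefSeq table for 40 of the 48 members, as 50 promoters, and were searched on both strands with 34961 promoters of all genes. The element TGATGNAA, the core of the C/EBP-ATF response element, occurred in 3.62% of all promoters and in 1 of the 50 member promoters, that of *SLC25A11*, where TTCCATCA, its reverse complement, read on the gene's strand, starts 71 bases before the start site. The letters GCATGCGC, a core of the NRF1 motif, occurred in 3.06% of all promoters and in 0 of the 50 member promoters. The sterol element TCACNCCAC occurred in 1.13% of all promoters and only at *SLC25A40* among the members, as TCACGCCAC 83 bases before the start. The CCAAT box, shown as ATTGG in the *SLC25A1* stretch, occurred in 34.6% of all promoters and in 22 of the 50 member promoters, 44.0%. A match is a description of letters and shows no binding.

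The ADP/ATP carriers, which bring ADP into the matrix and release ATP, fell with NXP800 at 24 h, most of all *SLC25A5*. All 3 tested members were called lower at 24 h and *SLC25A4* and *SLC25A5* at 6 h. Over all genes, beside this class and those that follow, 27.8% were lower and 25.0% higher at 6 h. At 24 h these shares were 28.6% and 27.5%, and 18.5% of all genes were lower at both times. *SLC25A5* (chromosome X, 119468444 to 119471396, plus strand, RefSeq on GRCh38.p14 here and for the other genes) had 787, 808 and 789.5 CPM with DMSO and 672, 700.4 and 665 CPM with NXP800 at 6 h. Every NXP800 library was below every DMSO library, by a small step (log2 change -0.23 ± 0.066 (SE), adjusted p = 0.00824). The 24 h levels were 1002, 1033 and 975 CPM with DMSO and 721, 620.0 and 669.6 CPM with NXP800. The step there was larger, to 0.668-fold of DMSO (log2 change -0.58 ± 0.066 (SE), adjusted p = 1.57e-06). *SLC25A6* (chromosome X, 1386152 to 1392113, minus strand), which lies in the region shared by both sex chromosomes, had 698, 706 and 634 CPM with DMSO and 666, 530.1 and 564 CPM with NXP800 at 24 h, and these groups overlapped although the test passed (log2 change -0.21 ± 0.085 (SE), adjusted p = 0.045). That call was lost without any one of DMSO 6 h replicate 1, NXP800 6 h replicate 1, NXP800 6 h replicate 2, DMSO 24 h replicate 1, DMSO 24 h replicate 2, NXP800 24 h replicate 2 and NXP800 24 h replicate 3 (adjusted p = 0.0531 to 0.27). It was also lost with DESeq2 size factors, scaling by library total and the 24 h libraries alone (adjusted p = 0.0642 to 0.161). At 6 h its groups overlapped, with a log2 change of 0.11 ± 0.085 (adjusted p = 0.314). *SLC25A4*, the muscle-type carrier, was low throughout and fell at both times, by 0.37 and 0.35 on the log2 scale (adjusted p = 0.00367 and 0.00688). The latter call was lost without NXP800 24 h replicate 2 (adjusted p = 0.0551). In the GENCODE annotation, the source of the overlaps here and below, exons of the antisense gene *SLC25A5-AS1* cover 14.0% of the *SLC25A5* transcript. The strand setting of the counting is not given in the sources used here.

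The make-up of the ADP/ATP carrier transcripts differed between the treatments. Per kb of transcript, *SLC25A5* made up 67.0 ± 1.15% of the 3 tested carriers with DMSO and 61.9 ± 1.36% with NXP800 at 6 h, and 61.9 ± 0.789% against 55.7 ± 1.20% at 24 h (SD, n = 3). The lowest DMSO library was above the highest NXP800 library at each time, at 65.9% against 63.1% at 6 h and 61.2% against 56.6% at 24 h. *SLC25A6* made up most of the rest, at 32.2 ± 1.14% and 37.5 ± 1.40% at 6 h and 37.7 ± 0.850% and 43.8 ± 1.23% at 24 h, while *SLC25A4* stayed under 1% in every group. These shares were not tested.

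The phosphate carrier *SLC25A3* (chromosome 12, 98593686 to 98606367, plus strand), which supplies phosphate for ATP synthesis, had 555, 569.8 and 521 CPM with DMSO and 514, 514 and 498 CPM with NXP800 at 6 h. The groups did not overlap, yet the difference did not pass the test (log2 change -0.11 ± 0.062 (SE), adjusted p = 0.157). By 24 h *SLC25A3* had 667, 630.1 and 637 CPM with DMSO and 556, 500.0 and 532 CPM with NXP800. Here all NXP800 libraries were lower and the test passed (log2 change -0.28 ± 0.063 (SE), adjusted p = 0.00103).

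The 3 tested ATP-Mg/phosphate carriers, which adjust the adenine nucleotide content of the matrix in response to calcium, each followed a course of their own. *SLC25A23* (chromosome 19, 6436081 to 6459792, minus strand) fell at both times. It had 42.7, 41.8 and 38.7 CPM with DMSO and 24.3, 24.6 and 25.3 CPM with NXP800 at 6 h. By 24 h *SLC25A23* had 58.9, 61.5 and 67.9 CPM with DMSO and 31.2, 32.0 and 44.5 CPM with NXP800. All NXP800 libraries lay under all DMSO libraries (log2 change -0.73 ± 0.11 (SE), adjusted p = 3.6e-05 at 6 h and log2 change -0.81 ± 0.11 (SE), adjusted p = 8.95e-06 at 24 h). *SLC25A25* (chromosome 9, 128068232 to 128109245, plus strand) turned direction. At 6 h it had 23.9, 23.5 and 24.7 CPM with DMSO and 35.0, 34.9 and 32.8 CPM with NXP800, all NXP800 libraries being higher (log2 change 0.51 ± 0.070 (SE), adjusted p = 1.63e-05). By 24 h *SLC25A25* had 26.0, 28.7 and 27.3 CPM with DMSO and 23.5, 25.2 and 22.6 CPM with NXP800, all NXP800 libraries being lower (log2 change -0.20 ± 0.071 (SE), adjusted p = 0.0248). The 24 h call was lost without any one of DMSO 24 h replicate 2, NXP800 24 h replicate 1 and NXP800 24 h replicate 3 (adjusted p = 0.0584 to 0.097). It was also lost with scaling by library total, without a filter on low counts or in the 24 h libraries alone (adjusted p = 0.247, 0.144 and 0.102). The antisense gene *SLC25A25-AS1* covers 19.4% of the transcript. *SLC25A24* had 89.2, 87.6 and 82.2 CPM with DMSO and 75.8, 82.7 and 79.9 CPM with NXP800 at 6 h, where the groups overlapped (log2 change -0.12 ± 0.073 (SE), adjusted p = 0.186). By 24 h *SLC25A24* had 80.4, 68.8 and 65.7 CPM with DMSO and 56.1, 52.4 and 51.9 CPM with NXP800, with all NXP800 libraries lower (log2 change -0.42 ± 0.075 (SE), adjusted p = 0.000152).

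Among the di- and tricarboxylate carriers, 3 of 4 fell at both times, beside 18.5% of all genes. The citrate carrier *SLC25A1* (chromosome 22, 19175581 to 19178736, minus strand), which exports citrate for fatty acid and sterol synthesis, showed the largest fall at 24 h of any member above 1 CPM. It had 61.9, 66.8 and 57.8 CPM with DMSO and 44.2, 47.0 and 40.2 CPM with NXP800 at 6 h, without overlap (log2 change -0.51 ± 0.12 (SE), adjusted p = 0.00269). By 24 h *SLC25A1* had 75.8, 92.0 and 97.1 CPM with DMSO and 26.2, 27.1 and 38.6 CPM with NXP800, which left 0.347 of the DMSO level (log2 change -1.53 ± 0.13 (SE), adjusted p = 4.88e-08). The dicarboxylate carrier *SLC25A10* (chromosome 17, 81712284 to 81721012, plus strand), which exchanges malate or succinate for phosphate, had 26.9, 31.4 and 28.1 CPM with DMSO and 18.0, 20.1 and 18.7 CPM with NXP800 at 6 h. By 24 h *SLC25A10* had 41.4, 42.6 and 44.7 CPM with DMSO and 24.3, 18.8 and 27.0 CPM with NXP800. It fell by 0.60 and 0.88 on the log2 scale with no overlap (adjusted p = 0.000197 and 3.42e-06). An unnamed gene on the same strand covers 62.9% of its transcript. Whether that gene was also among those counted was not checked, so the effect on the *SLC25A10* counts is not known. The oxoglutarate carrier *SLC25A11* (chromosome 17, 4937130 to 4940046, minus strand) had 119, 126 and 111 CPM with DMSO and 93.8, 91.3 and 88.0 CPM with NXP800 at 6 h. By 24 h *SLC25A11* had 118, 124 and 121 CPM with DMSO and 79.4, 71.9 and 82.5 CPM with NXP800. All NXP800 libraries were below all DMSO libraries at both times (log2 change -0.38 ± 0.065 (SE), adjusted p = 0.000129 and log2 change -0.63 ± 0.065 (SE), adjusted p = 5.92e-07). *SLC25A21*, which carries 2-oxoadipate, was not called at 6 h (log2 change -0.35 ± 0.15 (SE), adjusted p = 0.0606) or 24 h (log2 change 0.18 ± 0.16 (SE), adjusted p = 0.342). Its 6 h change was called in the blocked fit, in which replicate numbers enter the model (log2 change -0.35, adjusted p = 0.0273), as it was without DMSO 24 h replicate 1 (adjusted p = 0.0356). In the 6 h libraries alone it was called too (adjusted p = 0.0431). Exons of 2 genes on the other strand cover 45.4% of its transcript.

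**Figure D3:**
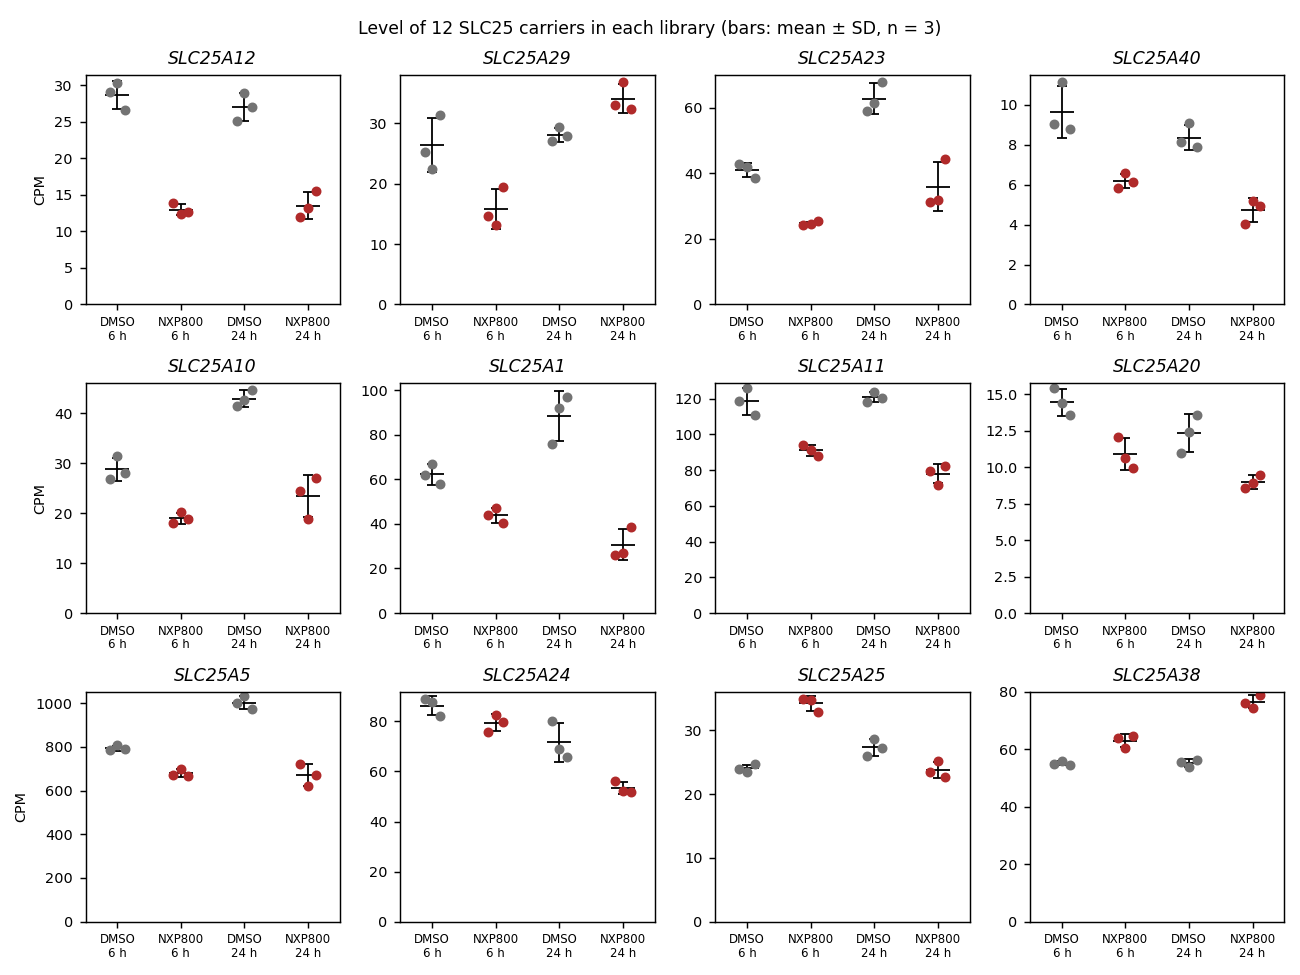
Level of 12 carriers in each library in CPM on a linear axis from 0 (points, 3 libraries per group, DMSO grey and NXP800 red, bars mean ± SD). *SLC25A12* falls to similar levels at both times, *SLC25A1* falls further at 24 h, *SLC25A25* lies above DMSO at 6 h and below it at 24 h, and *SLC25A29* lies below DMSO at 6 h and above it at 24 h.

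The aspartate and glutamate carriers held the largest falls at 6 h. These were that of the low-count *SLC25A18* and, among members with a mean above 1 CPM, that of *SLC25A12*. *SLC25A12* (chromosome 2, 171783405 to 171894244, minus strand), also called aralar, is an aspartate-glutamate carrier of the malate-aspartate shuttle. It had 29.1, 30.3 and 26.6 CPM with DMSO and 13.8, 12.4 and 12.7 CPM with NXP800 at 6 h. By 24 h *SLC25A12* had 25.1, 28.9 and 27.0 CPM with DMSO and 11.9, 13.2 and 15.5 CPM with NXP800. NXP800 left 0.454 of the DMSO level at 6 h (log2 change -1.14 ± 0.10 (SE), adjusted p = 1.02e-07) and 0.501 at 24 h (log2 change -0.997 ± 0.10 (SE), adjusted p = 3.52e-07). *SLC25A13*, or citrin, the second aspartate-glutamate carrier and the higher of both per length, had 110.0, 114 and 102 CPM with DMSO and 100.01, 102 and 94.6 CPM with NXP800 at 6 h. Those groups overlapped (log2 change -0.14 ± 0.059 (SE), adjusted p = 0.0649). The change was called with the replicate block (log2 change -0.13, adjusted p = 0.0155) and without DMSO 6 h replicate 3 (adjusted p = 0.0307). With a filter of at least 10 counts in every library it was called too (adjusted p = 0.0487). By 24 h *SLC25A13* had 92.8, 91.6 and 94.9 CPM with DMSO and 78.7, 73.7 and 77.9 CPM with NXP800, without overlap (log2 change -0.28 ± 0.060 (SE), adjusted p = 0.000831). The glutamate carrier *SLC25A22* had 41.7, 39.7 and 47.2 CPM with DMSO and 34.6, 32.4 and 34.5 CPM with NXP800 at 6 h, all NXP800 libraries being lower (log2 change -0.34 ± 0.070 (SE), adjusted p = 0.000649). By 24 h *SLC25A22* had 47.1, 46.4 and 46.9 CPM with DMSO and 46.5, 45.6 and 47.5 CPM with NXP800, which overlapped (log2 change -0.0078 ± 0.069 (SE), adjusted p = 0.932). The other glutamate carrier, *SLC25A18*, was near the detection limit, with 2 to 59 counts in a library, and other genes cover 10.1% of its transcript on the opposite strand. It had 1.65, 1.86 and 1.61 CPM with DMSO and 0.644, 0.856 and 0.552 CPM with NXP800 at 6 h (log2 change -1.31 ± 0.23 (SE), adjusted p = 0.000144). By 24 h *SLC25A18* had 1.07, 0.908 and 0.721 CPM with DMSO and 0.0660, 0.0940 and 0.0957 CPM with NXP800 (log2 change -3.34 ± 0.36 (SE), adjusted p = 1.02e-06). The groups did not overlap at either time. The 8 counts of the NXP800 libraries at 24 h, 2 to 3 in each, against 80 with DMSO give a ratio of 0.0949 with an exact 95% interval of 0.0396 to 0.196, counting error only, so the fitted change at that time depends on few reads.

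The other amino acid carriers and the carnitine carrier went in both directions, with 3 lower and 1 higher of 6 at 6 h and 2 lower and 1 higher at 24 h. Of all genes 27.8% were lower and 25.0% higher at 6 h, and 28.6% and 27.5% at 24 h. *SLC25A38* (chromosome 3, 39383370 to 39397351, plus strand), the glycine carrier needed for haem synthesis, rose at both times. It had 54.8, 55.8 and 54.5 CPM with DMSO and 63.9, 60.5 and 64.6 CPM with NXP800 at 6 h (log2 change 0.19 ± 0.056 (SE), adjusted p = 0.00802). By 24 h *SLC25A38* had 55.5, 53.8 and 56.3 CPM with DMSO and 76.2, 74.4 and 78.8 CPM with NXP800 (log2 change 0.47 ± 0.056 (SE), adjusted p = 2.86e-06). Every NXP800 library was above every DMSO library. The 6 h call was lost without a filter on low counts (adjusted p = 0.051). *SLC25A29* (chromosome 14, 100278567 to 100306444, minus strand), a carrier of basic amino acids, had 25.3, 22.5 and 31.3 CPM with DMSO and 14.7, 13.1 and 19.5 CPM with NXP800 at 6 h, all NXP800 libraries being lower (log2 change -0.74 ± 0.13 (SE), adjusted p = 0.000186). By 24 h *SLC25A29* had 27.1, 29.4 and 27.9 CPM with DMSO and 33.1, 36.9 and 32.4 CPM with NXP800, all NXP800 libraries being higher, and this change did not pass the test (log2 change 0.28 ± 0.13 (SE), adjusted p = 0.0744). It passed with scaling by library total, without a filter on low counts and in the 24 h libraries alone (adjusted p = 0.00659 to 0.0332). It also passed with the replicate block (log2 change 0.28, adjusted p = 0.000451) and without DMSO 6 h replicate 3 or NXP800 6 h replicate 3 (adjusted p = 0.0481 and 0.0334). Other genes cover 18.7% of the transcript on the opposite strand. The carnitine-acylcarnitine carrier *SLC25A20*, which brings fatty acids in for oxidation, had 15.4, 14.4 and 13.6 CPM with DMSO and 12.1, 10.6 and 9.97 CPM with NXP800 at 6 h. By 24 h *SLC25A20* had 10.97, 12.4 and 13.6 CPM with DMSO and 8.55, 8.93 and 9.47 CPM with NXP800. It was lower without overlap at both times (log2 change -0.41 ± 0.10 (SE), adjusted p = 0.00365 and log2 change -0.46 ± 0.11 (SE), adjusted p = 0.00174). The ornithine carrier *SLC25A15* fell at 6 h (log2 change -0.33 ± 0.062 (SE), adjusted p = 0.000308) and had a log2 change of -0.14 ± 0.062 at 24 h (adjusted p = 0.0731). The latter was called with the replicate block (log2 change -0.14, adjusted p = 0.0232) and without NXP800 24 h replicate 1 (adjusted p = 0.0432). *SLC25A44*, which carries branched-chain amino acids, fell at 24 h (log2 change -0.35 ± 0.077 (SE), adjusted p = 0.0011) and was not called at 6 h (log2 change -0.18 ± 0.080 (SE), adjusted p = 0.0647). It was called at 6 h with the block (log2 change -0.18, adjusted p = 0.0342) or without NXP800 24 h replicate 3 (adjusted p = 0.0427). *SLC25A45* was not called at 6 h or 24 h (adjusted p = 0.444 and 0.187).

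Both glutathione carriers, which bring glutathione into the matrix, fell at both times. *SLC25A39* had 137, 149 and 149 CPM with DMSO and 122, 113 and 123 CPM with NXP800 at 6 h. By 24 h *SLC25A39* had 208, 202 and 194 CPM with DMSO and 172, 152 and 172 CPM with NXP800. It fell by 0.28 and 0.28 on the log2 scale without overlap (adjusted p = 0.00187 and 0.00148). *SLC25A40* (chromosome 7, 87833568 to 87876360, minus strand), the scarcer of the pair, had 9.02, 11.2 and 8.77 CPM with DMSO and 5.83, 6.57 and 6.14 CPM with NXP800 at 6 h. By 24 h *SLC25A40* had 8.13, 9.08 and 7.86 CPM with DMSO and 4.03, 5.17 and 4.94 CPM with NXP800. It fell by 0.64 and 0.82 on the log2 scale (adjusted p = 0.00044 and 5.27e-05), and NXP800 and DMSO did not overlap. Whether the 2 carriers responded differently was not tested.

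Among the carriers of cofactors and vitamins 2 rose at 6 h, and 1 rose and 1 fell at 24 h. Of all genes 25.0% were higher at 6 h, and 27.5% were higher and 28.6% lower at 24 h. *SLC25A32*, the folate and FAD carrier and the highest of them per length, had 128, 115 and 114 CPM with DMSO and 145, 144 and 138 CPM with NXP800 at 6 h. All NXP800 libraries were higher (log2 change 0.26 ± 0.067 (SE), adjusted p = 0.00414). By 24 h *SLC25A32* had 104, 106 and 96.3 CPM with DMSO and 109.8, 109 and 96.9 CPM with NXP800, with overlap (log2 change 0.041 ± 0.067 (SE), adjusted p = 0.623). A gene on the same strand covers 88.1% of its transcript, so its reads may be split or lost if that gene was also counted, which was not checked. *SLC25A26*, which imports S-adenosylmethionine, rose at 6 h (log2 change 0.31 ± 0.10 (SE), adjusted p = 0.0151), a call lost without NXP800 6 h replicate 1 (adjusted p = 0.0519), and was not called at 24 h (log2 change 0.046 ± 0.10 (SE), adjusted p = 0.716). *SLC25A16*, linked to coenzyme A, rose at 24 h although its groups overlapped (log2 change 0.36 ± 0.14 (SE), adjusted p = 0.0386). That call was lost without any one of DMSO 24 h replicate 1, DMSO 24 h replicate 3, NXP800 24 h replicate 1 and NXP800 24 h replicate 2 (adjusted p = 0.0692 to 0.191), and in the 24 h libraries alone (adjusted p = 0.0749). The peroxisomal carrier *SLC25A17* fell at 24 h, also with overlap (log2 change -0.25 ± 0.081 (SE), adjusted p = 0.0139). Its call was lost without any one of DMSO 24 h replicate 1, DMSO 24 h replicate 2 and NXP800 24 h replicate 3 (adjusted p = 0.0541 to 0.0669), and with scaling by library total or the 24 h libraries alone (adjusted p = 0.108 and 0.0558). *SLC25A42*, a coenzyme A carrier, and *SLC25A51*, the NAD carrier, were not called at either time, with log2 changes of -0.20 ± 0.18 and -0.076 ± 0.11 at 6 h and -0.13 ± 0.17 and -0.066 ± 0.11 at 24 h.

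For the pyrimidine nucleotide carriers, which feed mitochondrial DNA and RNA synthesis, *SLC25A36* (chromosome 3, 140941836 to 140980995, plus strand) rose late. It had 63.6, 74.8 and 71.1 CPM with DMSO and 63.8, 72.0 and 77.2 CPM with NXP800 at 6 h, with overlap (log2 change 0.024 ± 0.079 (SE), adjusted p = 0.818), and 62.7, 65.5 and 59.0 CPM with DMSO and 78.4, 86.6 and 79.9 CPM with NXP800 at 24 h, all NXP800 libraries being higher (log2 change 0.39 ± 0.079 (SE), adjusted p = 0.000583). *SLC25A33* was not called, with log2 changes of 0.038 ± 0.059 and 0.015 ± 0.059, and 24.8% of its transcript has a near-identical copy elsewhere in the genome.

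Neither iron carrier was called. *SLC25A28*, or mitoferrin 2, had 22.8, 22.2 and 26.7 CPM with DMSO and 20.1, 20.0 and 23.0 CPM with NXP800 at 6 h. By 24 h *SLC25A28* had 24.9, 26.0 and 22.8 CPM with DMSO and 24.3, 22.3 and 19.0 CPM with NXP800. The groups overlapped at both times (log2 change -0.18 ± 0.10 (SE), adjusted p = 0.141 and log2 change -0.17 ± 0.10 (SE), adjusted p = 0.169). Both changes were called with the replicate block (log2 change -0.18, adjusted p = 0.0209 and -0.17, adjusted p = 0.0273). *SLC25A37*, or mitoferrin 1, had log2 changes of -0.063 ± 0.15 and 0.040 ± 0.15 (adjusted p = 0.742 and 0.837).

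The uncoupling protein-like carriers *SLC25A14* and *SLC25A30* went opposite ways. *SLC25A14*, which also bears the name UCP5, had 11.1, 11.9 and 11.8 CPM with DMSO and 13.6, 13.6 and 15.0 CPM with NXP800 at 6 h. By 24 h *SLC25A14* had 10.97, 9.55 and 10.2 CPM with DMSO and 12.5, 11.97 and 12.7 CPM with NXP800. It rose at both times without overlap (log2 change 0.28 ± 0.088 (SE), adjusted p = 0.0147 and log2 change 0.27 ± 0.090 (SE), adjusted p = 0.0161). The 6 h call was lost without DMSO 6 h replicate 1 or NXP800 6 h replicate 3 (adjusted p = 0.0625 and 0.071) or a filter on low counts (adjusted p = 0.0537), and the 24 h call without DMSO 24 h replicate 2 (adjusted p = 0.0734). *SLC25A30* fell at both times (log2 change -0.22 ± 0.085 (SE), adjusted p = 0.0419 and log2 change -0.28 ± 0.086 (SE), adjusted p = 0.0112). Its 6 h call was lost without any one of DMSO 6 h replicate 1, DMSO 6 h replicate 2, DMSO 6 h replicate 3, NXP800 6 h replicate 1, NXP800 6 h replicate 3 and NXP800 24 h replicate 2 (adjusted p = 0.0533 to 0.163). It was also lost with DESeq2 size factors, scaling by library total, no filter on low counts, the 6 h libraries alone and the DESeq2 Wald test (adjusted p = 0.0556 to 0.119). Its 24 h call was lost without NXP800 24 h replicate 2 (adjusted p = 0.0574) and with scaling by library total (adjusted p = 0.0654). *SLC25A27* was low and not called, although at 24 h all NXP800 libraries were higher (log2 change 0.58 ± 0.26 (SE), adjusted p = 0.0664). This change was called with the replicate block (log2 change 0.57, adjusted p = 0.01) and without DMSO 6 h replicate 3 or NXP800 24 h replicate 1 (adjusted p = 0.0419 and 0.0362). Scaling by library total and leaving out the filter on low counts also gave a call (adjusted p = 0.0452 and 0.0256).

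The outer membrane member *SLC25A46*, which acts in mitochondrial shape and lipid transfer, stood at 69.6, 74.3 and 67.6 CPM with DMSO and 63.0, 73.9 and 67.9 CPM with NXP800 at 6 h. By 24 h *SLC25A46* had 59.3, 55.8 and 54.5 CPM with DMSO and 56.0, 57.4 and 54.9 CPM with NXP800. The groups overlapped at both times, and the log2 changes were -0.046 ± 0.067 and -0.011 ± 0.068 (adjusted p = 0.588 and 0.902). Among members with a less well defined substrate, *SLC25A35* had 6.62, 7.66 and 5.25 CPM with DMSO and 4.36, 4.80 and 4.70 CPM with NXP800 at 6 h, all NXP800 libraries being lower (log2 change -0.49 ± 0.16 (SE), adjusted p = 0.0167), a call lost without DMSO 6 h replicate 2 or NXP800 6 h replicate 1 (adjusted p = 0.099 and 0.0592). By 24 h *SLC25A35* had 5.55, 7.56 and 5.56 CPM with DMSO and 4.72, 6.08 and 5.93 CPM with NXP800, which overlapped (log2 change -0.16 ± 0.16 (SE), adjusted p = 0.423). *SLC25A43* had 13.5, 12.3 and 13.4 CPM with DMSO and 12.8, 11.7 and 14.3 CPM with NXP800 at 6 h. By 24 h *SLC25A43* had 12.7, 15.1 and 12.9 CPM with DMSO and 15.0, 14.7 and 16.6 CPM with NXP800. These overlapped at both times (log2 change -0.011 ± 0.10 (SE), adjusted p = 0.936 and log2 change 0.18 ± 0.10 (SE), adjusted p = 0.132). The 24 h change was called without DMSO 24 h replicate 2 (adjusted p = 0.0495) and with scaling by library total (adjusted p = 0.0378). *SLC25A53* was not called (adjusted p = 0.402 at 6 h and 0.165 at 24 h).

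The responses at the 2 times were then compared directly, as the 24 h log2 change minus the 6 h log2 change in the same model. This difference passed the test for 9 of 41 members, 22.0%, beside 25.8% of all genes, with 4 members higher and 5 lower, where 13.8% of all genes were lower and the remainder of the 25.8% higher. It exceeded 2-fold for 3 members, *SLC25A1*, *SLC25A18* and *SLC25A29*, beside 6.68% of all genes. In the blocked fit, in which the replicate number pairs the libraries within each time, it passed for 18, 6 higher and 12 lower, beside 39.3% of all genes, 18.4% higher and 20.9% lower. The citrate carrier *SLC25A1* fell further at 24 h (difference -1.02 ± 0.18, adjusted p = 0.000544), as did *SLC25A18* (difference -2.03 ± 0.46, adjusted p = 0.00406). Smaller negative differences were those of *SLC25A5* (difference -0.36 ± 0.093, adjusted p = 0.0104) and *SLC25A24* (difference -0.30 ± 0.10, adjusted p = 0.0429). *SLC25A25* changed sign, from higher to lower (difference -0.71 ± 0.10, adjusted p = 9.94e-05), and without the block it was the only member called in opposite directions, which 1.10% of all genes were in this order. With the block *SLC25A29* was called in opposite directions too, lower at 6 h (-0.75, adjusted p = 1.12e-08) and higher at 24 h (0.28, adjusted p = 0.000451). The difference was positive for *SLC25A29* (1.02 ± 0.18, adjusted p = 0.000758) and *SLC25A22* (0.33 ± 0.10, adjusted p = 0.0204), which were lower at 6 h and not called at 24 h. It was also positive for *SLC25A36* (0.36 ± 0.11, adjusted p = 0.0258) and *SLC25A38* (0.28 ± 0.079, adjusted p = 0.018), which were higher at 24 h. Of these calls, 4 depended on single libraries. That of *SLC25A24* was lost without any one of DMSO 6 h replicate 1, DMSO 6 h replicate 2, DMSO 6 h replicate 3, NXP800 6 h replicate 2, NXP800 6 h replicate 3, DMSO 24 h replicate 1, NXP800 24 h replicate 2 and NXP800 24 h replicate 3 (adjusted p = 0.056 to 0.118). That of *SLC25A36* was lost without any one of DMSO 6 h replicate 2, DMSO 6 h replicate 3, NXP800 6 h replicate 1, DMSO 24 h replicate 3 and NXP800 24 h replicate 2 (adjusted p = 0.0535 to 0.0769). That of *SLC25A22* was lost without DMSO 6 h replicate 3 or NXP800 6 h replicate 2 (adjusted p = 0.0625 and 0.058), and that of *SLC25A38* without NXP800 6 h replicate 2 (adjusted p = 0.0564). Without a filter on low counts the calls of *SLC25A24* and *SLC25A38* were lost (adjusted p = 0.0656 and 0.0648), and with scaling by library total that of *SLC25A24* (adjusted p = 0.116). Without NXP800 24 h replicate 1 the count of lower differences was 8, beside 12.9% of all genes. Without DMSO 6 h replicate 3 or NXP800 6 h replicate 2 the count of higher differences was 2, beside 10.1% and 9.07% of all genes.

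The block added *SLC25A3* (-0.18, adjusted p = 0.0438), *SLC25A6* (-0.32, adjusted p = 0.00546), *SLC25A10* (-0.28, adjusted p = 0.0451), *SLC25A11* (-0.26, adjusted p = 0.012), *SLC25A17* (-0.31, adjusted p = 0.00539), *SLC25A26* (-0.27, adjusted p = 0.0336) and *SLC25A32* (-0.22, adjusted p = 0.0146), all more negative at 24 h. It also added *SLC25A15* (0.20, adjusted p = 0.035) and *SLC25A21* (0.54, adjusted p = 0.0352), both more positive at 24 h. Each value is the blocked difference in log2 change. Across the 41 members the log2 changes at the 2 times had the same sign for 31 and opposite signs for 10. The members keep their order in part, with Pearson's r = 0.690 and Spearman's rho = 0.584 over 41 genes, which share libraries within each time and are not independent. The low-count *SLC25A18*, the lowest at both times, is among them, and r was not computed without it. The matching correlations and share of equal signs over all genes were not computed. *SLC25A12* and *SLC25A23*, with large falls at both times, had differences of 0.14 ± 0.14 and -0.076 ± 0.15 (adjusted p = 0.486 and 0.763).

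**Figure D4:**
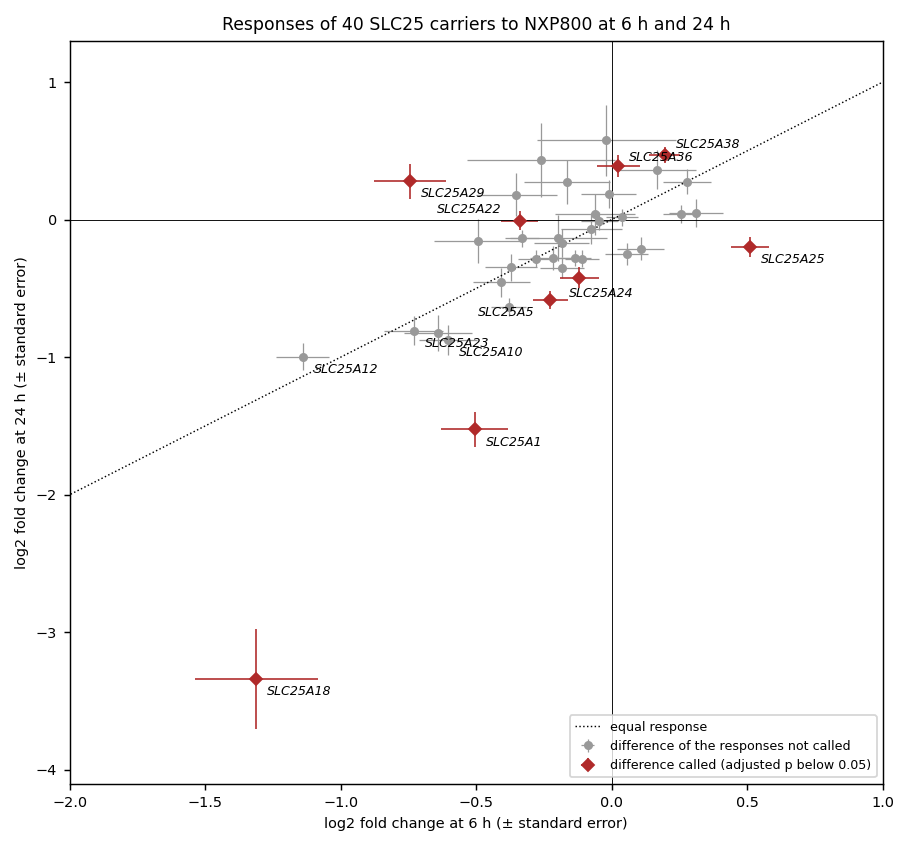
Log2 fold change with NXP800 against DMSO at 6 h (horizontal) and 24 h (vertical) for 40 of the 41 tested carriers, each ± standard error, with the dotted line marking equal responses and diamonds marking the 9 members whose difference between the times passed the test. *SLC25A1* and *SLC25A18* lie far below the line, *SLC25A29* far above it, and *SLC25A25* has moved from right of 0 to below 0.

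The genes around the carriers were read from lists of import components, other transporters and enzymes. Of 5 carriers under other symbols 4 were tested, and *MTCH2* fell at 6 h (log2 change -0.23 ± 0.066 (SE), adjusted p = 0.00706) and *MTCH1* at 24 h (log2 change -0.28 ± 0.057 (SE), adjusted p = 0.000535). *UCP3* at 6 h and *UCP2* at 24 h were the other calls, with log2 changes of -2.32 ± 0.63 (adjusted p = 0.00529, mean level 0.238 CPM) and -0.28 ± 0.11 (adjusted p = 0.0384). A list of 16 carrier import genes held subunits of the TOM complex of the outer membrane beside genes of the TIM22 pathway. Of these, 8 were lower and 1 higher at 6 h, and 10 were lower at 24 h. Most of those lower at 6 h were TOM subunits, and the TIM22 genes were not counted apart. Over all genes, beside these lists and those that follow, 27.8% were lower and 25.0% higher at 6 h, and 28.6% and 27.5% at 24 h. The outer membrane pore subunits *TOMM5* and *TOMM6* fell by 0.55 and 0.55 on the log2 scale at 6 h and by 0.82 and 0.77 at 24 h. The small chaperone *TIMM9*, which escorts carriers across the intermembrane space, rose at 6 h (log2 change 0.65 ± 0.085 (SE), adjusted p = 8.64e-06).

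Of 18 other mitochondrial transporters and channels, 10 were called lower at 6 h and 14 at 24 h, beside 27.8% and 28.6% of all genes, and 0 were called higher. The sideroflexins, which include serine transporters, held the largest changes at 6 h, in *SFXN5* (log2 change -1.24 ± 0.13 (SE), adjusted p = 1.05e-06), *SFXN3* (log2 change -1.03 ± 0.11 (SE), adjusted p = 9.78e-07) and *SFXN1* (log2 change -0.64 ± 0.082 (SE), adjusted p = 7.24e-06). At 24 h the largest were *SFXN2* (log2 change -1.29 ± 0.13 (SE), adjusted p = 4.13e-07), the pyruvate carrier subunit *MPC2* (log2 change -0.93 ± 0.090 (SE), adjusted p = 2.82e-07) and *SFXN3* (log2 change -0.90 ± 0.11 (SE), adjusted p = 2.29e-06).

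Among 11 tested enzymes that work with the citrate, malate and aspartate carriers, 8 were lower and 1 was higher at each time, where 27.8% and 28.6% of all genes were lower at 6 h and 24 h. The 1 that rose was *GOT1*, the cytosolic aspartate aminotransferase of the malate-aspartate shuttle. It had 103, 105 and 94.5 CPM with DMSO and 344, 312 and 306 CPM with NXP800 at 6 h (log2 change 1.67 ± 0.11 (SE), adjusted p = 7.5e-09). By 24 h *GOT1* had 136, 123 and 121 CPM with DMSO and 316, 251 and 207 CPM with NXP800 (log2 change 1.03 ± 0.11 (SE), adjusted p = 9.41e-07). Every NXP800 library was above every DMSO library, in contrast to the carriers *SLC25A11* and *SLC25A12* of the same shuttle. *ACLY*, which splits the citrate that *SLC25A1* exports, fell by 0.44 at 6 h and 0.74 at 24 h on the log2 scale (adjusted p = 3.9e-05 and 1.15e-07).

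Users of carried cofactors were split, with 6 higher and 7 lower of 18 at each time, and the calls of all genes were split likewise, 25.0% higher and 27.8% lower at 6 h and 27.5% and 28.6% at 24 h. The genes that rose belonged to mitochondrial one-carbon metabolism and proline synthesis, led by *ALDH1L2* (log2 change 1.69 ± 0.21 (SE), adjusted p = 6.48e-06 at 6 h and log2 change 2.37 ± 0.22 (SE), adjusted p = 1.78e-07 at 24 h), *MTHFD2* (log2 change 1.35 ± 0.077 (SE), adjusted p = 1.09e-09 at 6 h and log2 change 0.77 ± 0.076 (SE), adjusted p = 3.47e-07 at 24 h) and *PYCR1* (log2 change 0.95 ± 0.10 (SE), adjusted p = 6.72e-07 at 6 h and log2 change 1.04 ± 0.10 (SE), adjusted p = 1.77e-07 at 24 h). These enzymes use folate, glycine or proline intermediates. The largest falls at 6 h were in *NFS1*, the iron-sulfur cluster desulfurase (log2 change -1.08 ± 0.083 (SE), adjusted p = 3.18e-08), and *CPT1A*, which makes the acylcarnitine carried by *SLC25A20* (log2 change -0.71 ± 0.10 (SE), adjusted p = 1.72e-05). At 24 h they were in *CPT1C* (log2 change -1.34 ± 0.44 (SE), adjusted p = 0.0158, mean level 0.433 CPM), *NFS1* (log2 change -0.63 ± 0.081 (SE), adjusted p = 5.74e-06) and the ornithine aminotransferase *OAT* (log2 change -0.56 ± 0.063 (SE), adjusted p = 1.46e-06).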

How the data were processed

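PolyA RNA of MNNG/HOS cells was sequenced from strand-specific libraries. According to the submitters' processing notes, fastp 0.20.1, STAR 2.7.5a and HTSeq 0.12.4 were used with hg38 and the RefSeq annotation of GRCh38.p14. The authors deposited raw counts of read pairs per gene symbol for each library. The counting mode and strand setting are not given in the sources used here. Lines that name no gene (6.66% to 8.14% without a feature at 6 h, 2.73% to 3.67% at 24 h, 2.10% to 2.43% ambiguous and 1.86% to 3.37% not uniquely aligned) entered neither the library sizes nor any test.

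Counts were filtered with filterByExpr, scaled by TMM and fitted with edgeR 4.0.16 (R 4.3.3) as a 4-group quasi-likelihood model of 12 libraries. NXP800 was compared with DMSO at 6 h, at 24 h, and between the times, and a gene was called at a Benjamini-Hochberg adjusted p below 0.05 over 15979 genes. Standard errors of log2 changes were derived as the absolute log2 change divided by the square root of the quasi-likelihood F statistic. The fit was tested on simulated data. Levels are CPM on scaled library sizes, and levels per length use GENCODE v44 representative transcripts. Overlaps with other genes are from GENCODE too, while the reads were counted on RefSeq, so an overlapping gene need not have been counted. Positions and promoters are from RefSeq, GRCh38.p14.

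Values in each library are given for the 10 called members with the largest change at each time and a mean of at least 1 CPM, for up to 8 members whose responses differed between the times, *SLC25A18* being given among these, and for the highest member of each class per length. Up to 3 genes each way are named from related lists. The members and lists were chosen with earlier results of these data known.

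Libraries of the same replicate number deviated together within a time (r = 0.159 to 0.329, against -0.268 to 0.0580 for different numbers), so the numbers pair the libraries, on the data alone. The fit with the replicate number as a block was therefore run beside the unblocked one. Replicates differed beyond counting noise (chi-square per degree of freedom 7.95 to 28.6), so no pair was treated as a single library. Alternatives were DESeq2 1.42.0 size factors and Wald test, scaling by library total, other count filters, each time alone, an adjusted p below 0.01 and leaving out each library. The position, promoter and overlaps of *SLC25A6* were taken from chromosome X only, and the counting of its chromosome Y copy was not examined. Values of 1 member and 1 related gene are not reported here, although both entered the counts.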

Additional observations from a re-analysis of the deposited data

Results flagged for a closer look

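The response to NXP800 differed between 6 h and 24 h for 9 of the 41 tested carriers, by the test of the difference of the log2 changes in the edgeR quasi-likelihood model, beside 25.8% of all genes. The largest was the low-count glutamate carrier *SLC25A18* (difference -2.03, adjusted p = 0.00406), with 2 to 3 counts in each NXP800 library at 24 h. The basic amino acid carrier *SLC25A29* (difference 1.02, adjusted p = 0.000758) was lower in 3 of 3 NXP800 libraries at 6 h and higher in 3 of 3 at 24 h. Its 24 h change was not called in that model (adjusted p = 0.0744), though it was with the replicate block (adjusted p = 0.000451). The citrate carrier *SLC25A1* (difference -1.02, adjusted p = 0.000544) was lower in 3 of 3 at both times and further so at 24 h. The calcium-regulated carrier *SLC25A25* (difference -0.71, adjusted p = 9.94e-05) was higher in 3 of 3 at 6 h and lower in 3 of 3 at 24 h.

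The other 5 differences were smaller. They were those of *SLC25A36* (0.36, adjusted p = 0.0258), *SLC25A5* (-0.36, adjusted p = 0.0104), *SLC25A22* (0.33, adjusted p = 0.0204), *SLC25A24* (-0.30, adjusted p = 0.0429) and *SLC25A38* (0.28, adjusted p = 0.018). The 6 h and 24 h libraries also differed in reads matching no annotated feature, at 6.66% to 8.14% against 2.73% to 3.67%. The part of this in the differences was not tested.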

How the results depend on the processing

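Each log2 change of the 41 tested carriers was recomputed under 20 alternatives at each time and 19 for the difference of the responses. None of the called values changed sign, 82 values lost and 48 gained a call, and 2286 kept their side of the threshold. Under every alternative that tested them, 17 of the 22 members called at 6 h, 16 of the 23 called at 24 h and 4 of the 9 differences (*SLC25A1*, *SLC25A18*, *SLC25A25* and *SLC25A29*) passed, *SLC25A18* being untested with at least 10 counts in every library. Leaving out 1 library gave 19 to 23 calls at 6 h (4 to 5 higher, 15 to 18 lower), 19 to 25 at 24 h (3 to 6 higher, 16 to 19 lower) and 6 to 12 differences (2 to 5 higher, 4 to 8 lower). In these fits 45.6% to 53.1%, 49.6% to 55.1% and 19.6% to 25.6% of all genes were called. Without a filter on low counts 3 members were higher at 6 h, beside 14.2% of all genes in that fit. At an adjusted p below 0.01, 3 were higher at 6 h, 2 were higher at 24 h and 4 differences remained, 1 higher and 3 lower. Of all genes, 19.8% and 21.1% were then higher at 6 h and 24 h. For the difference 14.0% passed, 5.92% higher and 8.07% lower. With scaling by library total 7 were higher at 24 h (33.3% of all genes), and the DESeq2 Wald test gave 8 lower differences (14.3% of all genes). The cause was not tested, except that the stricter threshold admits fewer calls by construction. With the replicate block 26 members were called at 6 h, 27 at 24 h and 18 for the difference, 12 of these lower, beside 62.3%, 65.2% and 39.3% of all genes, and the block ended no call. No change was detectable in the 7 untested carriers, of which 6 had at most 2 counts in every library, and low depth and absent expression cannot be told apart there.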
